A study of Sus scrofa with 12 samples.

Results

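The genes described here take up, release, carry and store cholesterol in steroid-making cells, and their transcripts were followed in the ovary of pregnant sows. The list holds 7 genes: SCARB1, NPC1, NPC2, STARD3, SOAT1, LIPE and TSPO. Members were the probe sets to which the array annotation gives 1 of these symbols and no other, which found 8 probe sets for 6 of the genes, of 24123 probe sets and 10069 non-control probe sets with 1 symbol. NPC2 had 3 probe sets and the others 1 each. SOAT1, which esterifies cholesterol for storage, was matched to no probe set and was not analysed here.

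The samples are ovaries of 12 sows of the Iberian x Meishan F2 cross, killed on day 30 of pregnancy, with 1 Affymetrix porcine array per sow. By their EBV (estimated breeding value), 6 sows carry the label higher EBV (HIGH prolificacy) and 6 the label for lower EBV and LOW prolificacy, so the design asks which transcripts of the ovary go with breeding value for prolificacy. Each sample is described as an average of the right and left ovary, and at which step the averaging took place is not stated. The sows, numbered 1 to 6 in each group, are separate animals of 1 cross and no treatment is named, so the groups differ by label in breeding value only.

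A luteal cell makes progesterone from cholesterol. SCARB1 admits cholesteryl esters from lipoproteins at the cell surface, while cholesterol that arrives by endocytosis leaves the lysosome through NPC2, which binds it in the lumen, and NPC1, which sits in the membrane. STARD3 moves cholesterol at the late endosome, SOAT1 and LIPE make and split the esters of lipid droplets, and TSPO is a cholesterol-binding protein of the outer mitochondrial membrane. Inside the mitochondrion CYP11A1 cleaves the side chain, after STAR has brought cholesterol in.

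All 6 luteal markers examined (STAR, CYP11A1, HSD3B1, PTGFR, LHCGR and RLN2) were above 4 in every sow, and their mean level ran from 13.13 to 13.80 in high and from 13.36 to 13.62 in low prolificacy sows on the log2 scale. The samples were not pure corpus luteum: CYP19A3, an aromatase paralog taken here as a growing follicle marker, ranged from 3.86 to 12.74 over the sows. INSL3 of theca cells ranged from 6.80 to 13.35. Albumin exceeded 8 in 1 high and 3 low prolificacy sows. Rank correlations between arrays ran from 0.974 to 0.993, and high 2 and high 3 stood furthest from the rest, with mean rank correlations of 0.982 and 0.981. The 3' minus 5' difference of the actin control, a sign of RNA integrity, was 2.59 ± 0.45 (SD, n = 6) in high and 2.12 ± 0.13 (SD, n = 6) in low prolificacy sows. In whole ovary, fewer cells of a type and less RNA per cell cannot be told apart. The number of arrays limits the precision: the 95% interval of a difference extended by a median of 0.35 on each side over the 13390 probe sets tested.

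No member passed the test for a difference between high and low prolificacy sows. A probe set was tested if it exceeded 4 in at least 6 of the 12 sows, which 6 member probe sets of 5 genes did. With limma and Benjamini-Hochberg adjustment over all 13390 probe sets, 0 of the 6 passed an adjusted p of 0.05, as did 0.00% of all tested, and their adjusted p ran from 0.948 to 0.992. At an unadjusted p under 0.05 there were 0 members, against 5.64% of all probe sets. The 2 groups overlapped in every member, while they did not overlap in 0.471% of all probe sets. No member differed by 2-fold or more, as 0.627% of all did. The median member difference (high minus low) was -0.11, against -0.010 over all probe sets, with 2 members higher and 4 lower, where 47.6% of all were higher. The exact permutation test over the 924 assignments of sows, whose smallest p is 0.00216, gave two-sided p from 0.494 to 0.916.

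**Figure D1:**
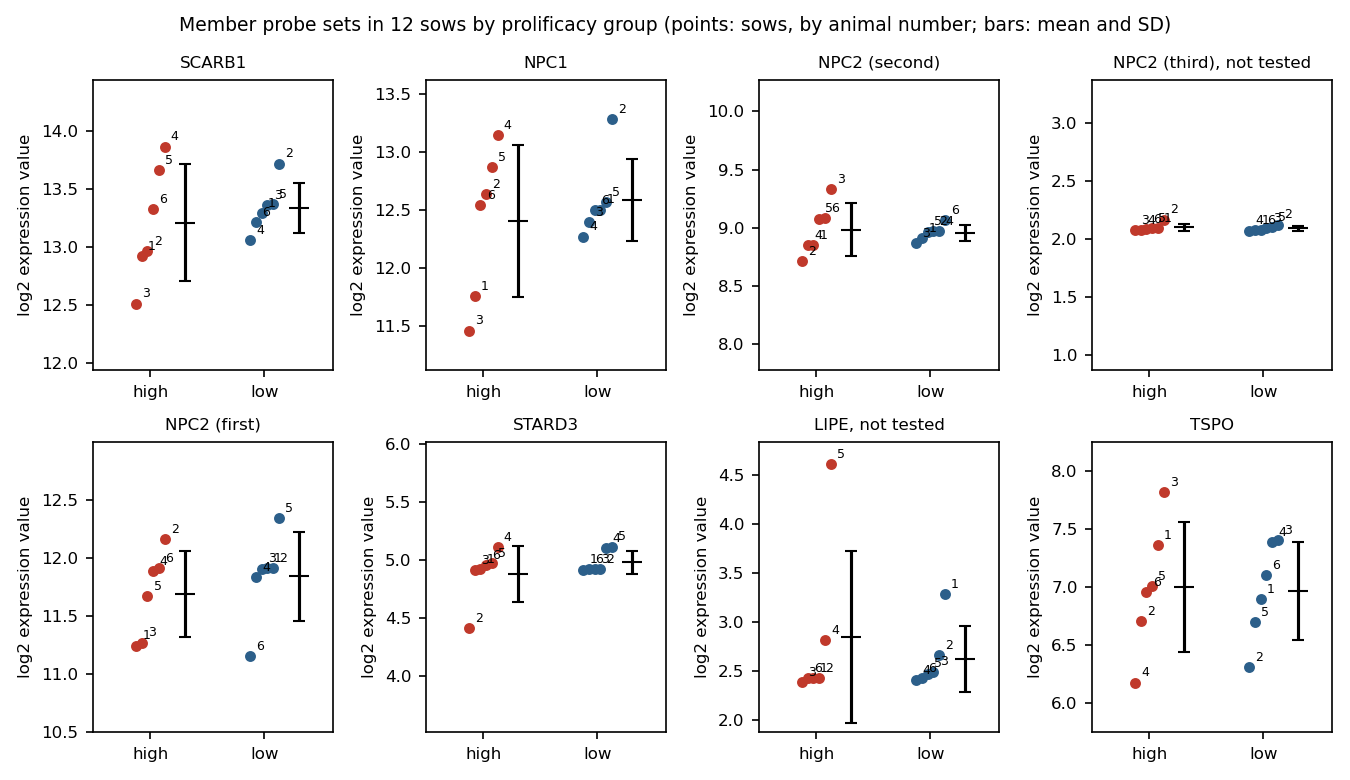
Log2 expression value (vertical axis) of each member probe set in high and low prolificacy sows, with points for sows numbered by animal and bars for mean and SD (n = 6 per group). The groups overlap in all 8 panels, and high 3 is lowest for SCARB1 and NPC1 and highest for TSPO.

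SCARB1, the lipoprotein receptor, is the uptake gene of the list. Its log2 value was 12.51 at the lowest, 13.15 at the median and 13.87 at the highest in high prolificacy sows, and 13.06, 13.33 and 13.72 in low prolificacy sows. High 3, high 1 and high 2 were the 3 lowest of all 12 sows, and high 4 was the highest, so high prolificacy sows lay at both ends of the order. The means were 13.21 ± 0.50 (SD, n = 6) and 13.34 ± 0.22 (SD, n = 6). The difference was -0.13 (95% interval -0.58 to 0.33), 1.09-fold lower in high prolificacy sows, with an adjusted p of 0.975 by limma. It was 0.011 without high 3 and 0.11 without high 2 and high 3, so its sign rested on those sows. With the actin 3' difference as a covariate it was -0.37, with a limma adjusted p of 0.476. This covariate moved much of the array: 2178 of 13390 probe sets then had an unadjusted limma p under 0.05, against 755 without it.

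NPC1, the exporter in the lysosomal membrane, varied most among the tested members, over a 3.53-fold range. In high prolificacy sows the lowest, median and highest values were 11.46, 12.59 and 13.14, and in low prolificacy sows 12.27, 12.50 and 13.28. High 3 and high 1, at 11.46 and 11.76, lay below every low prolificacy sow, while low 2 and high 4 were the highest. The group means were 12.40 ± 0.65 (SD, n = 6) and 12.58 ± 0.36 (SD, n = 6), a difference of -0.18 (95% interval -0.79 to 0.42, limma adjusted p = 0.969). Without high 3 the difference was 0.0051. With the actin 3' difference as a covariate it was -0.68, with an adjusted p of 0.265 by limma.

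NPC2, the soluble partner of NPC1, was read by 3 probe sets that did not give 1 pattern, taken here in the order of their mean. The first ran from 11.25 over a median of 11.78 to 12.16 in high prolificacy sows and from 11.16 over 11.91 to 12.34 in low prolificacy sows. Low 6, high 1 and high 3 were its 3 lowest sows and low 5 its highest, and its difference was -0.15 (95% interval -0.59 to 0.29, limma adjusted p = 0.962). With the actin 3' difference as a covariate this was -0.50, with a limma adjusted p of 0.273.

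The second had a narrower range, with lowest, median and highest values of 8.71, 8.96 and 9.33 in high prolificacy sows and of 8.86, 8.97 and 9.06 in low prolificacy sows. All low prolificacy sows lay within the range of the high group, whose ends were high 2 and high 3. Its difference was 0.027 (95% interval -0.21 to 0.26, limma adjusted p = 0.990), and -0.043 without high 3. With the actin 3' difference as a covariate it was 0.20, with a limma adjusted p of 0.381. Across the 12 sows the first and second gave a Pearson r of -0.48 (permutation p = 0.114) and a Spearman rho of -0.28 (permutation p = 0.383), and r was -0.092 without high 3 and high 2, the sows farthest from the median. Over the 926 genes with 2 tested probe sets, the median r between the 2 was 0.64. The third NPC2 probe set stayed between 2.07 and 2.17, near the floor of the scale, and was not tested. Unless another probe set is named, NPC2 in the correlations means the first, and the second was not set against the other members.

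STARD3, the endosomal carrier, was dim. In high prolificacy sows its lowest, median and highest values were 4.41, 4.94 and 5.11, and in low prolificacy sows 4.92, 4.92 and 5.12. Of the 12 sows, 6 lay within 0.02 of the median of 4.92, and high 2 stood alone below them at 4.41. The means were 4.88 ± 0.24 (SD, n = 6) and 4.98 ± 0.099 (SD, n = 6). The difference of -0.10 (95% interval -0.35 to 0.15, limma adjusted p = 0.948) was -0.0083 without high 2 and -0.013 with the actin 3' difference as a covariate.

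LIPE, the hormone-sensitive lipase that releases cholesterol from stored esters, exceeded 4 in 1 sow and was not tested. Its lowest, median and highest values were 2.39, 2.43 and 4.61 in high and 2.41, 2.48 and 3.29 in low prolificacy sows. High 5 held the value of 4.61 and low 1 that of 3.29, while 7 sows lay within 0.05 of the median of 2.45. The means were 2.85 ± 0.88 (SD, n = 6) and 2.62 ± 0.34 (SD, n = 6), and their difference of 0.23 was -0.13 without high 5. Of the 4 fat cell markers, ADIPOQ and LEP were below 4 in every sow, at 2.15 to 2.21 and 2.77 to 2.98, FABP4 exceeded 4 in 3 low prolificacy sows, and PLIN1 was not analysed here. The summed level of the 3 measured markers, given as their mean, ran from 2.51 to 2.72 in high and from 2.60 to 3.63 in low prolificacy sows.

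TSPO, on the outer mitochondrial membrane, ranged 3.12-fold over the sows, with lowest, median and highest values of 6.18, 6.98 and 7.82 in high and 6.31, 7.00 and 7.40 in low prolificacy sows. Its highest sow was high 3 and its lowest were high 4 and low 2, the reverse of NPC1. The means were 7.00 ± 0.56 (SD, n = 6) and 6.97 ± 0.42 (SD, n = 6), a difference of 0.037 (95% interval -0.53 to 0.61, limma adjusted p = 0.992). It was -0.13 without high 3 and 0.20 without high 4. With the actin 3' difference as a covariate it was 0.56, with a limma adjusted p of 0.280.

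The SD was larger in high than in low prolificacy sows for 5 of the 6 tested member probe sets, a share near that of all probe sets, 73.8% of which had the larger SD in the high group. The median SD of the members was 0.44 in high and 0.29 in low prolificacy sows, against 0.31 and 0.23 over all probe sets tested.

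**Figure D2:**
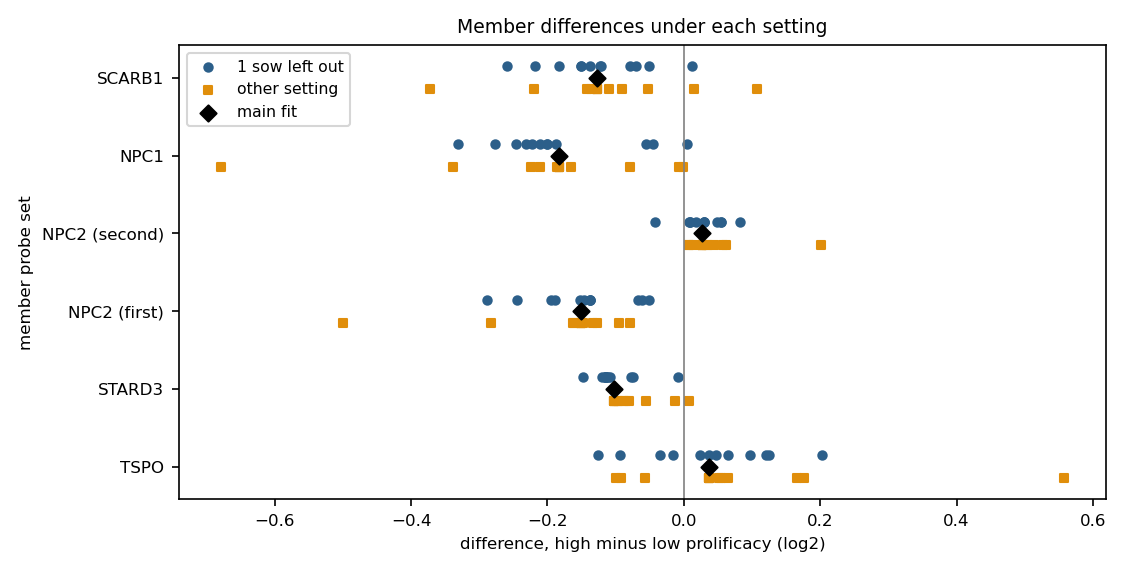
Difference between high and low prolificacy sows (log2, horizontal axis) for each tested member probe set in the main fit (diamond), with 1 sow left out (circles) and under other settings of the analysis (squares). The points of the first NPC2 probe set all lie below 0 and those of SCARB1 and TSPO on both sides, and the farthest from 0 are -0.68 for NPC1 and 0.56 for TSPO with the actin 3' difference as a covariate.

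Although the groups did not separate, some members rose and fell together from sow to sow. Over the 12 sows 10 pairs of members were compared, and 3 passed a Benjamini-Hochberg adjusted permutation p of 0.05. SCARB1 and NPC1 rose together, with r = 0.91 (permutation p = 0.00010, adjusted p = 0.00095) and rho = 0.80 (adjusted permutation p = 0.0124). The correlation was 0.90 within the high and 0.93 within the low prolificacy sows, and 0.81 (permutation p = 0.0034) without high 3 and high 4, the sows farthest from the median of SCARB1. Of 6655 other named probe sets, 0.286% had a higher r with SCARB1 than NPC1 had, and 1.10% a higher r with NPC1 than SCARB1 had.

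NPC1 and TSPO ran in opposite directions. Their r was -0.89 (permutation p = 0.00019, adjusted p = 0.00095) and rho was -0.88 (adjusted permutation p = 0.0053). It was -0.92 within the high and -0.89 within the low prolificacy sows, and -0.86 (permutation p = 0.0015) without high 3 and high 1. Of the other named probe sets 0.811% had a lower r with NPC1 than TSPO had, and 0.736% a lower r with TSPO than NPC1 had.

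SCARB1 and TSPO gave r = -0.78 (permutation p = 0.0030, adjusted p = 0.0101) but rho = -0.66 with an adjusted permutation p of 0.0775. It was -0.81 within the high and -0.81 within the low prolificacy sows, and -0.50 (permutation p = 0.139) without high 3 and high 4. Of the other named probe sets 2.25% had a lower r with SCARB1 than TSPO had, and 5.15% a lower r with TSPO than SCARB1 had. NPC2 gave r = 0.54 with NPC1 and -0.57 with TSPO (both with adjusted permutation p = 0.130), and the former was 0.055 without high 3 and high 1. STARD3 gave r = 0.048 with NPC1 and 0.0012 with TSPO, the latter with an adjusted permutation p of 0.997.

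**Figure D3:**
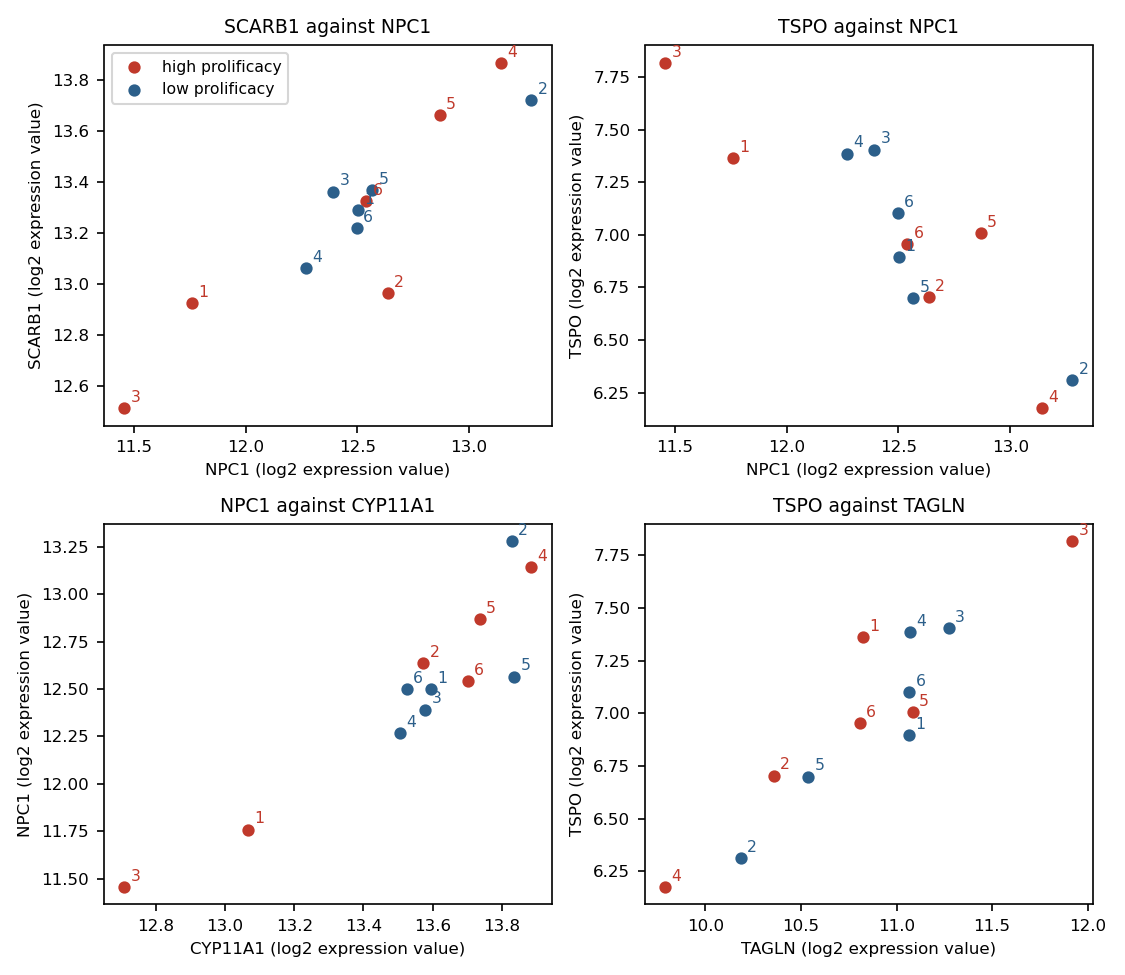
Log2 expression values of pairs of genes in the 12 sows, with points coloured by prolificacy group and numbered by animal. SCARB1 rises with NPC1 (r = 0.91), TSPO falls with NPC1 (r = -0.89), NPC1 rises with CYP11A1 (r = 0.92) and TSPO rises with TAGLN (r = 0.93).

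Several luteal markers varied with these members from sow to sow. The 6 tested member probe sets were set against 11 marker genes and the actin 3' difference, 72 relations in all, of which 25 passed an adjusted permutation p of 0.05. Passing was not counted over the whole array, where many genes also followed these members. Of 6655 named probe sets, 10.6% reached an r of 0.7 or more with SCARB1, 12.6% with NPC1 and 9.06% with TSPO. An r of -0.7 or less was reached by 5.88%, 8.93% and 9.89%. NPC1 rose with CYP11A1 (r = 0.92, adjusted permutation p = 0.00048) and with STAR (r = 0.89, adjusted permutation p = 0.00043). SCARB1 rose with CYP11A1 (r = 0.88, adjusted permutation p = 0.00043) and with PTGFR, the prostaglandin F receptor of luteal cells (r = 0.87). TSPO fell as STAR rose (r = -0.86, adjusted permutation p = 0.00043) and as PTGFR rose (r = -0.86). The luteal receptor LHCGR did not share this pattern: its r was -0.47 with SCARB1, -0.21 with NPC1 and 0.060 with TSPO, none of which passed. The first NPC2 probe set rose with CYP11A1 (r = 0.69, adjusted permutation p = 0.0450), while the second gave r = -0.45 with CYP11A1 and -0.54 with STAR, and none of its relations passed.

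With SCARB1, NPC1, NPC2 and TSPO, the markers ACTA2, TAGLN, INSL3 and CYP19A3 had the opposite signs to CYP11A1 and STAR. Of the growing follicle, theca, macrophage and endothelial lists only CYP19A3, INSL3, CD163 and PECAM1 were set against the members. The other markers of these lists were not, so each value stands for its gene and not for a cell type. TSPO rose with the smooth muscle genes TAGLN (r = 0.93, adjusted permutation p = 0.00043) and ACTA2 (r = 0.89, adjusted permutation p = 0.00072) and with the theca gene INSL3 (r = 0.79, adjusted permutation p = 0.0136). NPC1 fell as TAGLN rose (r = -0.76, adjusted permutation p = 0.0239), and the first NPC2 probe set fell as CYP19A3 rose (r = -0.80, adjusted permutation p = 0.0135), where the second gave r = 0.49 and did not pass. The macrophage marker CD163 gave r = 0.10 with SCARB1, 0.26 with NPC1 and -0.14 with TSPO, and the endothelial marker PECAM1 0.34, 0.45 and -0.23. Over all 12 sows these are the signs of CYP11A1 and STAR, and none of the 6 passed. Those of PECAM1 did not hold in both groups. Its r was 0.47, 0.64 and -0.37 within the high and -0.90, -0.83 and 0.63 within the low prolificacy sows. The marker MYH11 was not analysed here, and the mean of the 2 smooth muscle markers measured ran from 11.24 to 13.09 in high and from 11.64 to 12.60 in low prolificacy sows. For the 5 growing follicle markers this mean ran from 3.97 to 7.55 and from 5.27 to 7.07, with AMH below 4 in every sow, and for the 2 theca markers from 5.30 to 8.75 and from 4.59 to 7.85. The part of the cell makeup of the samples in the member correlations was not tested. A luteal score of STAR, CYP11A1, HSD3B1 and PTGFR, which cannot tell cell number from RNA per cell, was removed. With it removed, r was 0.62 for SCARB1 with NPC1, -0.60 for NPC1 with TSPO and -0.22 for SCARB1 with TSPO. Then 0 of the 10 pairs passed (both of the former had an adjusted permutation p of 0.181). Each marker of this score had passed with SCARB1, NPC1 and TSPO, so a fall in r was built into its removal. LHCGR was left out of the score after seeing the data.

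With the actin 3' difference removed instead, 3 pairs passed. No member's relation to that difference passed, and the largest was that of TSPO at r = -0.56. With group means removed, TSPO (r = -0.75) and the first NPC2 probe set (r = 0.66) did pass, both with an adjusted permutation p of 0.0492. STARD3 gave its only passing relation with LHCGR, the luteinising hormone receptor (r = -0.71, adjusted permutation p = 0.0260), which was -0.28 without high 2 and low 5. Of the 25 relations, 11 passed without high 2 and high 3, 15 passed by Spearman's rho and 0 passed in the 10 sows left after the 2 farthest from the marker's median were left out. All 25 kept their sign, and their lowest adjusted permutation p was then 0.0536. The relations with HSD3B1 rested on those sows, with r of 0.24 for SCARB1, 0.35 for NPC1 and -0.29 for TSPO without them. Among those 10 sows, NPC1 with CYP11A1 gave r = 0.79 (unadjusted permutation p = 0.0058), SCARB1 with CYP11A1 0.83 (0.0037) and TSPO with STAR -0.87 (0.0010).

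**Figure D4:**
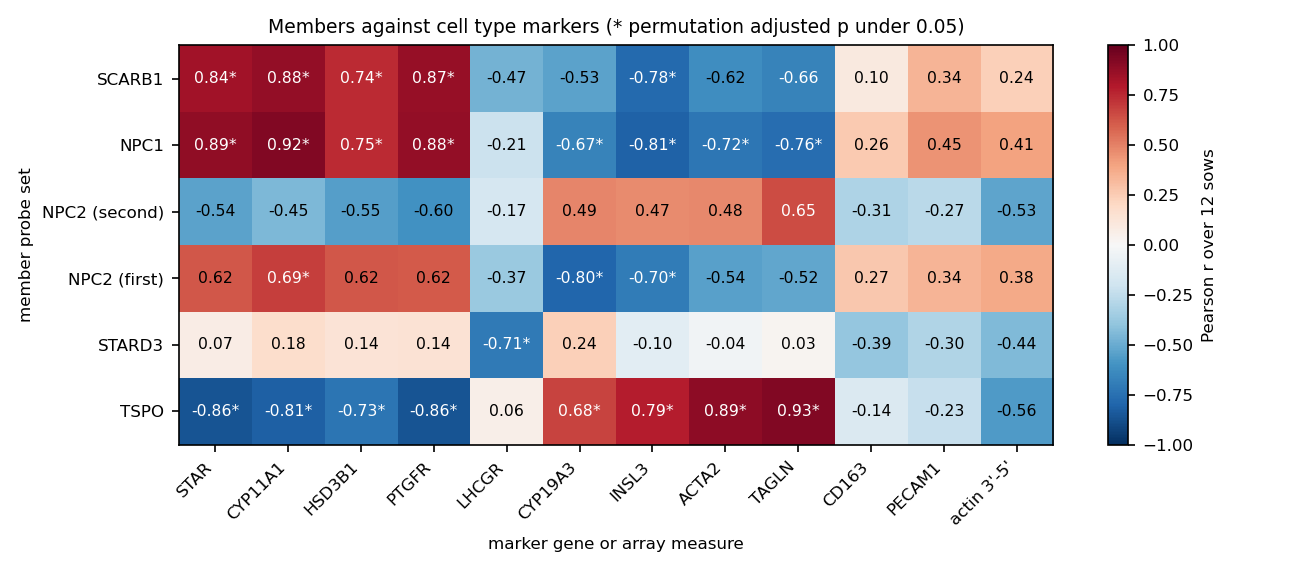
Pearson r over the 12 sows between each tested member probe set (rows) and cell type markers or the actin 3' difference (columns), with an asterisk where the adjusted permutation p is under 0.05. SCARB1 and NPC1 are positive with STAR, CYP11A1, HSD3B1 and PTGFR and negative with INSL3, ACTA2 and TAGLN, with opposite signs for TSPO, while LHCGR is negative and CD163 and PECAM1 are positive with both, without an asterisk.

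The genes most like each member were taken as the 3 named genes with the highest r over the 12 sows among 6656 tested probe sets with 1 symbol. For SCARB1 these were DDX56 (r = 0.96), FKBP2 (0.95) and EMC3 (0.94). For NPC1 they were ALDOC (r = 0.97), NDUFB11 (0.97) and CCNC (0.96), and for NPC2 INHBA (r = 0.93), MAT2A (0.86) and CTSH (0.86). INHBA is on the growing follicle list, whose marker CYP19A3 gave r = -0.80 with NPC2. The ribosomal protein genes RPL14 (r = 0.98) and RPS13 (0.97) and the growth factor gene MDK (0.97) were nearest to TSPO. Those nearest to STARD3 were CUL4A (r = 0.91), ALAS1 (0.91) and TMEM248 (0.90), and they gave 0.42, 0.69 and 0.52 without high 2 and high 3. The nearest genes of the other 4 members kept r between 0.81 and 0.97 without those sows.

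No other gene of cholesterol handling passed the test with prolificacy either. Of 60 such genes on 5 lists, 42 had a probe set and 36 were tested, each by its brightest probe set. With limma, 0 passed the adjusted threshold and 0 reached an unadjusted p under 0.05. Of the 36, 13 were higher and 23 lower in high prolificacy sows, with a median difference of -0.056 against -0.010 over all probe sets.

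Uptake genes were higher in 5 of 6 cases, with a median difference of 0.093 and a range from -0.11 to 0.18. Genes of the lysosome and of ester storage were lower in 7 of 8, with a median of -0.041. PLIN3, a lipid droplet coat protein, differed by -0.26 (limma adjusted p = 0.888), ABHD5, the co-activator of the droplet lipase, by -0.17, and that lipase, PNPLA2, by 0.21. LIPA, which splits cholesteryl esters in the lysosome, differed by -0.017, and by 0.032 in its dimmer probe set, and the droplet coat protein PLIN2 by -0.022.

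Carriers and contact site proteins were lower in 9 of 12 cases, with a median of -0.087. OSBPL3, an oxysterol-binding protein, had the largest positive value, 4.44 ± 0.79 (SD, n = 6) against 3.81 ± 0.50 (SD, n = 6), a difference of 0.63 (95% interval -0.12 to 1.38, limma adjusted p = 0.888), which was 1.23 with the actin 3' difference as a covariate (limma adjusted p = 0.199). OSBPL3 was dim, exceeding 4 in 8 of the 12 sows, with a lowest value of 3.18. GRAMD1B, which moves cholesterol from the plasma membrane, differed by -0.35 and the related GRAMD1A by 0.12. OSBPL9 differed by -0.13, ACBD3, a Golgi protein that binds TSPO, by 0.11, and STAR by -0.052 and, in its dimmer probe set, by -0.26 (limma adjusted p = 0.929). VDAC1, the channel of the outer mitochondrial membrane, differed by -0.10, and by -0.28 (unadjusted p = 0.031 by limma) in its dimmer probe set.

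Of the efflux genes 3 of 4 were lower, with a median of -0.083. ABCA1, the exporter of cellular cholesterol, was 7.28 ± 2.05 (SD, n = 6) in high and 8.03 ± 1.41 (SD, n = 6) in low prolificacy sows, a difference of -0.75 (95% interval -2.72 to 1.22), which was 0.017 without high 2. Genes that control cholesterol supply were higher in 3 of 6 cases, with a median of 0.0035. INSIG2, which holds the SREBP precursor in the endoplasmic reticulum, differed by 0.28 and by 0.023 without high 2.

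**Figure D5:**
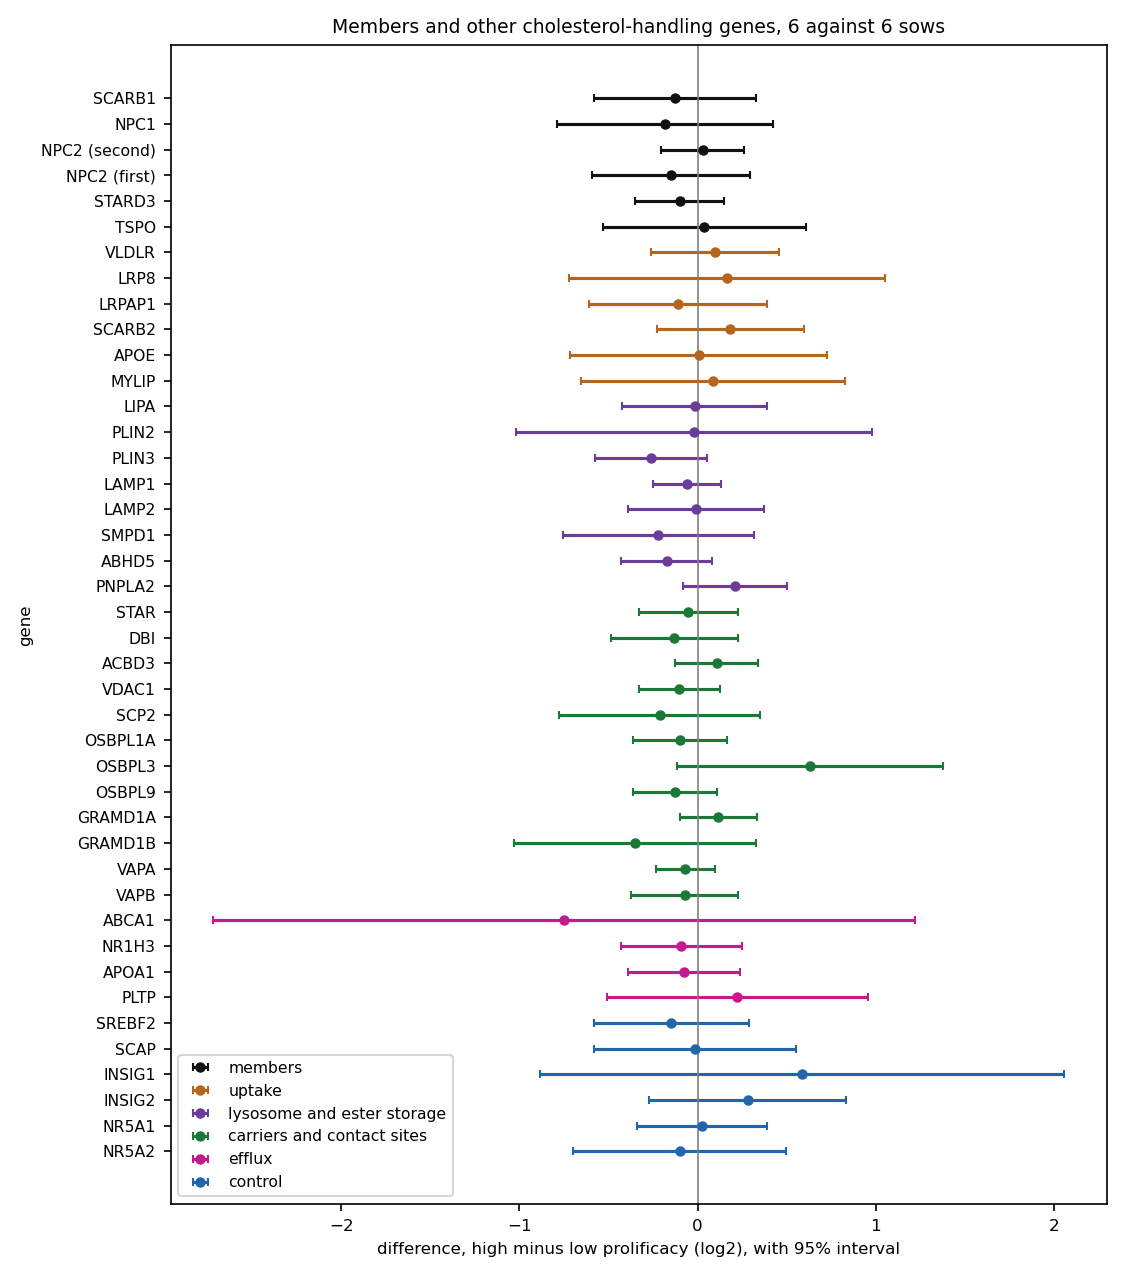
Difference between high and low prolificacy sows (log2, horizontal axis) with its 95% interval for the 6 tested member probe sets and 36 other cholesterol-handling genes, coloured by list. Every interval includes 0, and that of ABCA1 is the widest, from -2.72 to 1.22.

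Against the 36 pathway genes, the 3 members chosen for their correlation with each other gave 108 relations over the 12 sows, of which 33 passed an adjusted permutation p of 0.05. NPC1 had 11 positive and 3 negative relations, SCARB1 8 and 1, and TSPO 3 and 7. The genes named next were chosen by their r. NPC1 rose with DBI, the acyl-CoA-binding protein that is also a TSPO ligand (r = 0.94, adjusted permutation p = 0.00054), with SCAP (0.90) and SREBF2 (0.89), the sensor and transcription factor of sterol control, and with VDAC1 (0.87) and LIPA (0.79). It fell as LAMP2, a lysosomal membrane protein (r = -0.78), and MYLIP, a ubiquitin ligase (-0.78), rose. TSPO rose with MYLIP (r = 0.92, adjusted permutation p = 0.00054) and LAMP2 (0.82), and fell as SCAP (-0.88), SREBF2 (-0.87) and DBI (-0.85) rose.

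A wide share of the array followed the same sows. An r of 0.7 or more with NPC1 was reached by 12.6% of 6655 named probe sets and by 25.0% of the pathway genes, and with SCARB1 by 10.6% and 19.4%. An r of -0.7 or less with TSPO was reached by 9.89% of the named probe sets and 19.4% of the pathway genes. These shares describe the lists and were not tested. Of the 33 pathway relations, 22 passed without high 2 and high 3, 28 passed by rho, 27 passed with group means removed, and 1, that of TSPO with MYLIP, passed without the 2 farthest sows.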

How the data were processed

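RNA of 12 sow ovaries, 6 of high and 6 of low prolificacy, was hybridised to Affymetrix porcine arrays, per the labels. The deposited table holds 1 log2 value for each probe set and sow. The authors made it with GCOS and GCRMA, according to the submitters' processing notes, which give no version. GCRMA corrects background, normalizes arrays and summarises probes. That the scale is log2 was judged from the range of the values, 0.97 to 15.34. GCRMA draws dim probe sets toward a floor, so differences of dim genes such as STARD3, LIPE and OSBPL3 can be compressed.

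Gene symbols came from the array annotation, and 124 control probe sets were left out of tests. In a block of 62 control probe sets the names were displaced by 21 places. Moving them brought the mean gap between 24 pairs of like-named spike controls from 4.99 down to 0.456, and the actin 3' minus 5' difference uses the moved names. No 2 columns were identical.

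Probe sets above 4 in at least 6 sows (13390) were compared in R 4.3.3 by limma 3.58.1 (lmFit, then eBayes) without covariate, two-sided, with Benjamini-Hochberg adjustment at 0.05. Single probe sets were also compared with exact permutation of the 924 assignments. Correlations used 100000 two-sided permutations of the sows, adjusted within each family. The script was tested on simulated data.

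The labels give no batch. Same-numbered animals did not deviate together in every case (r from -0.46 to 0.17), so the numbers were not treated as pairs. Genes named are all members, up to 10 pathway genes by smallest p with STAR, LIPA, ABCA1 and PLIN2, the 3 genes nearest to each member, and markers by list. The members and lists were chosen with earlier results of these data known. Alternatives were testing every probe set, a filter at 6, quantile normalization, median centring, the animal number as a block, trend and robust moderation, array weights, covariates (actin 3' difference, albumin, luteal score, aromatase) and leaving out sows. The luteal score without LHCGR, the scores removed from correlations and the alternatives for marker and pathway correlations were added after seeing the data.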

Additional observations from a re-analysis of the deposited data

Results flagged for a closer look

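In each group of 6 sows, a sow was singled out where its gap to the nearest other sow exceeded Dixon's critical share of the range of the group. This was examined for 37 probe sets in both groups, 74 groups in all, and 11 values were singled out. Chance gives about 1 in 20 groups if they are independent. These were not, since the probe sets share the same sows and some were chosen for likeness to a member. Among the members, NPC1 was 13.28 in low 2, with the next low prolificacy sow at 12.57. STARD3 was 4.41 in high 2, with the next at 4.91. LIPE was 4.61 in high 5, with the next at 2.82, and 3.29 in low 1, with the next at 2.66. The third NPC2 probe set was 2.17 in high 2, within the floor of the scale.

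Among other cholesterol genes, INSIG2 was 9.72 in high 2, with the next at 8.44, and ABCA1 was 5.28 in low 3, with the next at 7.98. Of the genes nearest to NPC1, NDUFB11 was 11.55 and CCNC 9.97 in low 2, the sow in which NPC1 was also singled out. Of those nearest to STARD3, CUL4A was 6.58 and TMEM248 6.79 in high 2, the sow in which STARD3 was lowest. Genes chosen for their likeness to a member share its outlying sow by that choice.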

How the results depend on the processing

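No member and none of the 36 pathway genes passed the adjusted threshold under any setting run, including the animal number as a block (0 calls of 13390 probe sets, 662 at an unadjusted p under 0.05 by limma). Differences of uncalled genes changed sign as follows, and the cause was not tested. With array weights SCARB1 was 0.015, TSPO -0.099, STAR 0.042, LIPA 0.13 and PLIN2 0.056. Without high 2 and high 3 SCARB1 was 0.11, STARD3 0.0073, TSPO -0.091, STAR 0.051 and LIPA 0.035. With the actin difference as a covariate OSBPL9 was 0.0017, INSIG2 -0.21 and ABCA1 0.33. With the luteal score without LHCGR TSPO was -0.056, LIPA 0.047 and PLIN2 0.013, with albumin PLIN2 was 0.056, and with median centring LIPA was 0.00073. Leaving out 1 sow gave -0.26 to 0.011 for SCARB1, -0.33 to 0.0051 for NPC1, -0.043 to 0.082 for the second NPC2 probe set, -0.13 to 0.20 for TSPO, -1.30 to 0.017 for ABCA1, -0.10 to 0.051 for STAR, -0.088 to 0.092 for LIPA and -0.37 to 0.21 for PLIN2.

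Of the correlations between members, 3 passed with group means removed, without high 2 and high 3 and with the actin difference removed. With the luteal score without LHCGR removed, 0 passed. That score turned r to -0.41 for SCARB1 with NPC2, -0.13 for NPC1 with NPC2 and -0.17 for NPC1 with STARD3, which was -0.0067 with group means removed. Without high 2 and high 3, NPC2 with STARD3 gave 0.50 and STARD3 with TSPO -0.29, and with the actin difference removed 0.12 and -0.33. The values of LIPE near the floor and the dim, nearly constant values of STARD3 limit what a difference can show.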
